A study of Mus musculus with 24 samples.

Results

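The cell cycle and DNA replication genes described here are 39 named genes that cells use when they copy their DNA and divide. They cover cyclins and their kinase partners, the replication machinery, nucleotide supply, mitotic kinases, the spindle checkpoint and the spindle itself. The members were chosen by name, and 38 of the 39 were measured by 74 probe sets, out of 20380 probe sets for 12393 genes on the array. Cdca8, a subunit of the chromosomal passenger complex, has no probe set used here. For each gene the probe set with the highest mean over all arrays was used.

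RNA came from sciatic nerves of mice, stripped of the perineurial sheath, at postnatal day 5 (P5), P28 and 4 months, with 2 Affymetrix arrays for each of 12 groups. The genotypes were P0S63del/CHOP null (written S63del/CHOP null), P0S63del (S63del), CHOP null and WT. S63del is a mutant form of myelin protein zero, the main protein of peripheral myelin, that causes a Charcot-Marie-Tooth type neuropathy in mice. It is carried by a transgene under the regulatory sequence of the protein zero gene, which acts in myelinating Schwann cells, beside the normal gene. CHOP null mice lack CHOP, a transcription factor of the response to misfolded protein in the endoplasmic reticulum. The labels describe the S63del mice as neuropathic and the S63del/CHOP null mice as rescued. The labels call the 2 arrays of a group biological replicates and do not say whether nerves of several animals were pooled. The p-values set a difference against the spread between samples of a group, estimated over all 12 groups together.

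Schwann cell precursors and immature Schwann cells divide while they invade and sort axons. A Schwann cell that starts to myelinate leaves the cell cycle, and in an injured or diseased nerve Schwann cells, macrophages and fibroblasts can divide again. Cyclins with their kinases drive entry into each phase, the MCM helicase is loaded on origins to open DNA, and the anaphase-promoting complex ends mitosis by destroying cyclins.

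All values are log2 expression as deposited. The interquartile range of the arrays was 3.77 to 3.83 at P5, 2.90 to 3.52 at P28 and 3.86 to 3.90 at 4 months, so the P28 arrays were more compressed, and array medians lay between 6.84 and 7.03. CHOP itself (Ddit3) was at 6.60 to 7.37 on the 12 arrays labelled as lacking it, and at 7.61 to 9.59 on the other 12. The 7 measured markers of myelinating Schwann cells averaged 11.8 to 12.5 on all arrays. In whole nerve, fewer dividing cells and less RNA per dividing cell cannot be told apart.

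Promoters of cell cycle genes are known for 3 short motifs. The cell cycle genes homology region (CHR, letters TTTGAA) and CCAAT boxes (CCAAT) are read in genes of late cycle phases, and E2F sites (TTTGGCGC, TTTCCCGC, TTTGCCGC or TTTCGCGC) in genes of DNA synthesis. RefSeq promoter windows of 300 bases on GRCm38.p6 were found for 30 of the 38 measured members and searched on both strands. Of these 30, a CHR was present in 15 (50%), against 13.0% of the windows of all measured genes and 18.1% of all windows. A CCAAT box was present in 26 (86.7%), against 38.1% of the windows of measured genes. An E2F site was present in 6 (20%), against 3.57% of the windows of measured genes. All 15 members with a CHR also held a CCAAT box, a pairing seen in 5.16% of the windows of measured genes. A match is a run of letters and not a bound site.

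The 250 bases before the start of 4 members are shown as examples of a late-phase gene with a CHR and of a DNA synthesis gene without one, 5′ to 3′ on the strand of the gene, with matches to the motifs in capitals on either strand. Cdk1, at chr10:69352913-69353162 on the minus strand, holds all 3 kinds. Cdc20, at chr4:118437344-118437593 on the minus strand, and Ube2c, at chr2:164769679-164769928 on the plus strand, hold a CHR and CCAAT boxes. Mcm6, at chr1:128359706-128359955 on the minus strand, holds E2F sites and CCAAT boxes but no CHR. In Ube2c 2 CCAAT boxes of opposite strand overlap, and in Mcm6 2 E2F sites do.
Cdk1: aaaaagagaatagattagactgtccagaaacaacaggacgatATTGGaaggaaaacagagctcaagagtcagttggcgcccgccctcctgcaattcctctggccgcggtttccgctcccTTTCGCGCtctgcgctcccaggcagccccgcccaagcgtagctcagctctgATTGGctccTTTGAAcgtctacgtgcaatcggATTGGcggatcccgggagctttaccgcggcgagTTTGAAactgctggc
Cdc20: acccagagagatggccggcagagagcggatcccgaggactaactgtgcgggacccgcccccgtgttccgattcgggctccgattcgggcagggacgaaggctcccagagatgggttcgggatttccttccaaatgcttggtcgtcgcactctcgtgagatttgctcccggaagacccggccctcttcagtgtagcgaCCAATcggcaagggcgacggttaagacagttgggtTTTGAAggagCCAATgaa
Ube2c: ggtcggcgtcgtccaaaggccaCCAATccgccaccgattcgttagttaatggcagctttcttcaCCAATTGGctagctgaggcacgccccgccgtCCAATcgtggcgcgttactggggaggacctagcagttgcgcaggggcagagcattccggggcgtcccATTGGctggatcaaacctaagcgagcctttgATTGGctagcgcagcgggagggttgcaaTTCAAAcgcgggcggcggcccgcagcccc
Mcm6: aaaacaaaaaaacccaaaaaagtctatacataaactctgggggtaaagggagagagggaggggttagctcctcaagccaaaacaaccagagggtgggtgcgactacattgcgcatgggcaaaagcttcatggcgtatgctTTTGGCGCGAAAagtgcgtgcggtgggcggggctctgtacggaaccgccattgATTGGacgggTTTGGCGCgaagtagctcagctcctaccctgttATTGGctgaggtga

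By role, the E2F site was found in 5 of the 7 replication licensing and fork genes with a window (Mcm3, Mcm5, Mcm6, Mcm7 and Pclaf), and otherwise in Cdk1. The CHR was found in 1 of those 7 and in 0 of 3 nucleotide supply genes. It was found in 3 of 4 cyclins and kinase partners, in 2 of 2 windows of the group of Mki67, Top2a and Foxm1, in 2 of 3 mitotic kinase and passenger genes, in 4 of 6 checkpoint and anaphase-promoting complex genes and in 3 of 5 spindle, kinetochore and cytokinesis genes. These are counts of letters in small groups and were not tested.

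**Figure D1:**
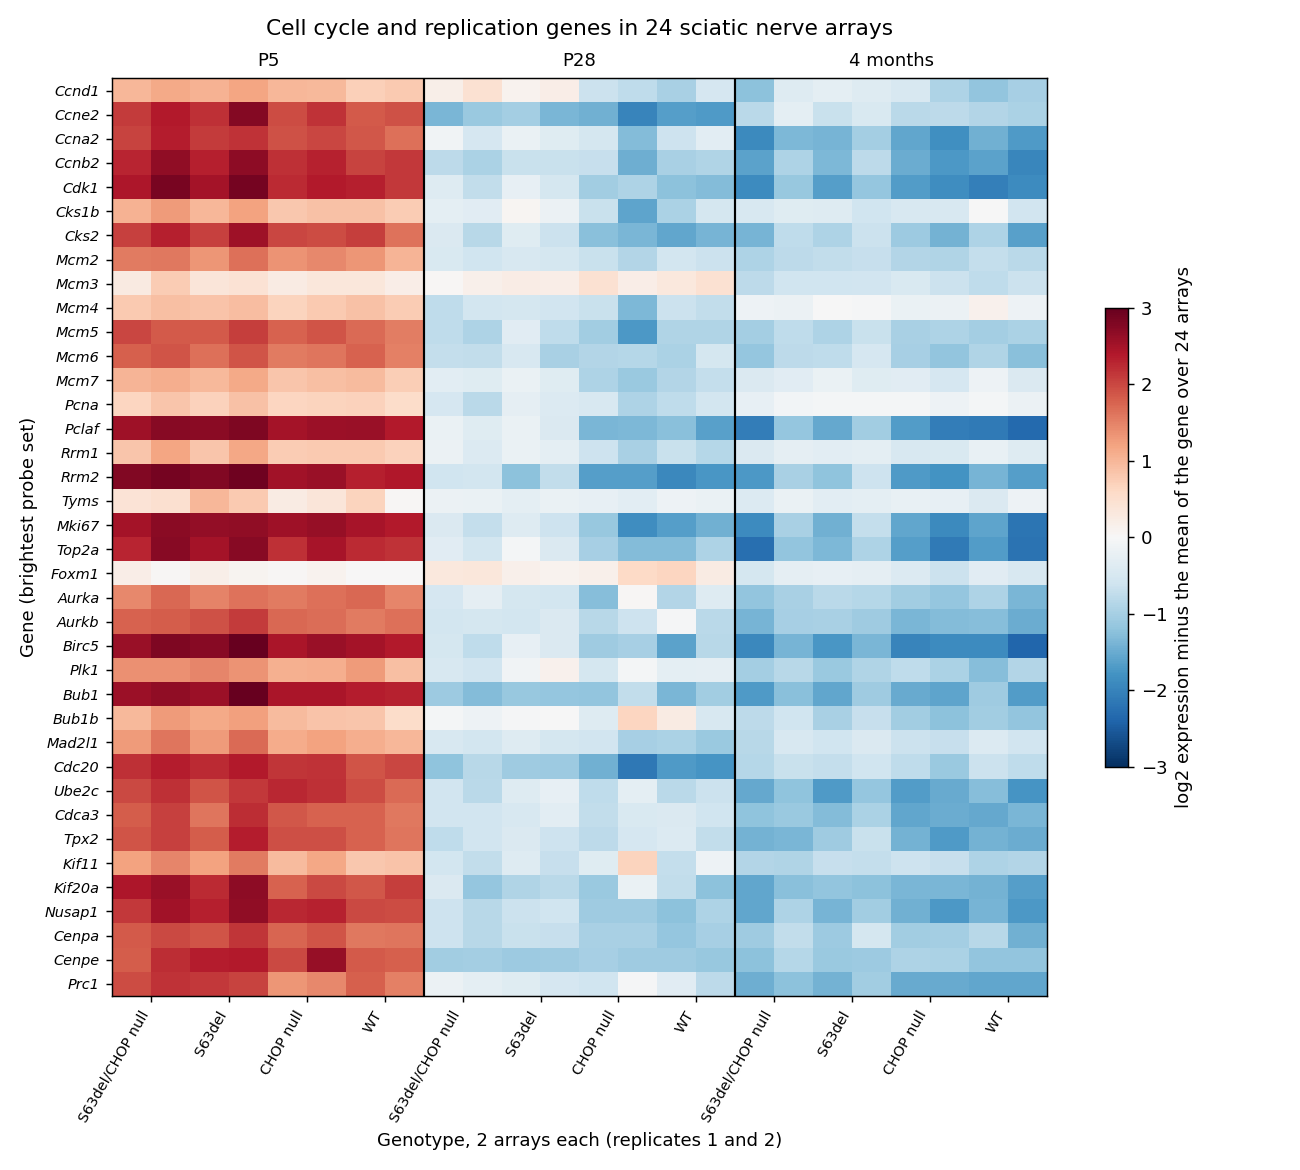
Log2 expression of the 38 measured genes (rows) on 24 arrays (columns, 2 per genotype within each age), with the mean of each gene over all arrays subtracted. Red at P5 against blue at P28 and 4 months is the pattern of 35 genes, whose 8 P5 arrays lie above all 16 later arrays.

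The first comparison asks what happened to these genes between the onset of myelination and its peak. Nearly all of them fell, in every genotype. At P28 against P5, 37 of the 38 were called lower in S63del/CHOP null nerves, where 24.1% of all genes were called lower. In S63del nerves 36 were lower (23.9% of all genes), in CHOP null nerves 36 (30.7%) and in WT nerves 36 (28.2%). The only call in the other direction was Foxm1 in WT nerves, where 31.3% of all genes were called higher. The median log2 difference of the 38 was -2.54 in S63del/CHOP null, -2.49 in S63del, -2.48 in CHOP null and -2.25 in WT nerves, against medians of all genes of 0.09, 0.10, 0.13 and 0.08.

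Mki67, the gene of the proliferation antigen Ki-67, shows the size of the fall. At P28 it was at 7.30 and 7.02 in S63del/CHOP null, 7.34 and 7.11 in S63del, 6.59 and 5.86 in CHOP null and 6.08 and 6.29 in WT nerves. At P5 it was at 10.22 and 10.44, 10.36 and 10.39, 10.28 and 10.33, and 10.21 and 10.11 in the same genotypes. No P28 array came near a P5 array. The P28 minus P5 difference was -3.98 ± 0.29 in WT nerves (SE, n = 2 each), a 15.7-fold fall (limma, adjusted p = 1.89e-08), and -3.15 ± 0.29 in S63del nerves.

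The largest fall in WT nerves was that of Rrm2, the regulated subunit of ribonucleotide reductase, which makes deoxynucleotides. Its difference was -4.21 ± 0.21, an 18.5-fold fall (limma, adjusted p = 3.33e-10). Pclaf, a partner of the sliding clamp, fell 15.2-fold and Cdc20, the activator of the anaphase-promoting complex, 12.8-fold. Birc5 (survivin, a passenger complex subunit) fell 12.6-fold, Ccne2 (cyclin E2) 11.7-fold, Bub1 (a checkpoint kinase) 11.6-fold and Cdk1 (the mitotic kinase) 11.2-fold.

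All 4 genes whose promoters are printed fell in this comparison. Cdk1 was at -3.49 ± 0.23, Cdc20 at -3.67 ± 0.18 and Ube2c at -2.56 ± 0.20 in WT nerves, and Mcm6 was at -2.36 ± 0.18.

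By role, all 7 cyclins and kinase partners were called lower in all 4 genotypes, with a median in WT nerves of -3.02. The smallest fall there was that of Ccnd1 (cyclin D1, which couples growth signals to entry into the cycle), at -1.49 ± 0.22 in WT nerves. Among the 8 licensing and fork genes the median in WT nerves was -1.70, and Pcna, the sliding clamp, fell 2.42-fold. All 4 mitotic kinase and passenger genes, all 6 checkpoint and anaphase-promoting complex genes and all 7 spindle, kinetochore and cytokinesis genes were called lower in each genotype. Their WT medians were -2.13, -2.38 and -2.67. All 3 nucleotide supply genes were called lower too, and Tyms (thymidylate synthase) fell by 0.53 on the log2 scale in WT nerves.

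Mcm3 and Foxm1 were the exceptions, although Mcm3 was called lower in S63del/CHOP null nerves (-0.42, limma adjusted p = 0.0215). For Mcm3, a helicase subunit, the brightest probe set gave 0.12 ± 0.14 in WT nerves, while 3 of its other probe sets gave -1.63, -1.76 and -2.08. For Foxm1, a transcription factor of mitotic genes, the brightest probe set gave 0.45 ± 0.15 in WT nerves (limma, adjusted p = 0.0193), 1 other gave -0.51 ± 0.21, and the call was lost (0.09) when its probe sets were averaged. Mcm3, Foxm1, Top2a, Cdca3 and Tyms each had probe sets called in opposite directions in WT nerves. Top2a, the topoisomerase that untangles copied chromosomes, had -3.31 on the probe set used and 0.62 on its other one. Taking each probe set as a feature, 61 of the 74 were lower and 5 higher in WT nerves.

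**Figure D2:**
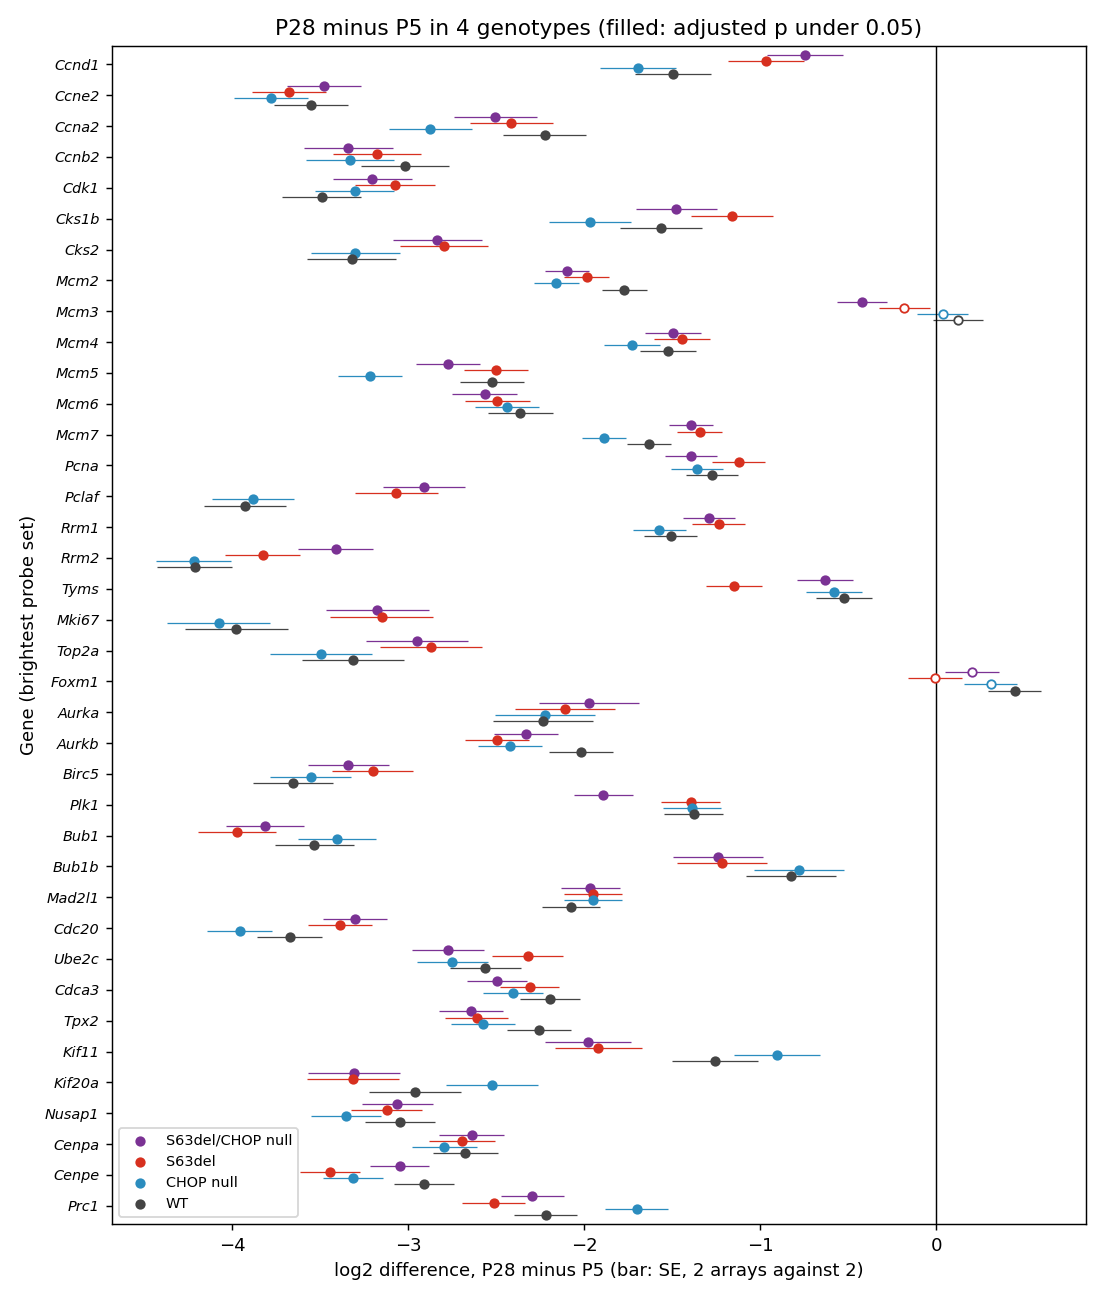
Log2 difference of P28 minus P5 (x axis) for each gene (y axis) in 4 genotypes, with bars of 1 SE and filled points for adjusted p under 0.05. All genes except Mcm3 and Foxm1 lie left of 0 in every genotype; Mki67 is at -3.98 in WT nerves and Foxm1 at 0.45.

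All members were below their P5 level at 4 months. At 4 months against P5 all 38 genes were called lower in every genotype, where 17.7%, 17.2%, 14.3% and 15.5% of all genes were called lower in S63del/CHOP null, S63del, CHOP null and WT nerves. The medians of the 38 were -2.90, -2.95, -2.88 and -2.77 in that order. Of the 74 probe sets 66 were lower and 0 higher in each genotype. In 35 of the 38 (92.1%) the lowest of the 8 P5 arrays stood above all 16 later arrays, which 12.4% of all genes showed. The exceptions were Mcm3, Foxm1 and Bub1b, a checkpoint kinase-like protein.

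Other genes of the cycle, from lists outside the 38, were also mostly lower at P28. Of 27 other replication genes 23 were lower and 1 higher at P28 against P5 in WT nerves, with Rfc4 (a clamp loader subunit) at -3.19 ± 0.17 and Dbf4 (the activator of an origin kinase) at -3.70 ± 0.25. Of 39 other mitotic genes 32 were lower and 1 higher, with Ncapg (condensin) at -2.89 ± 0.15 and Racgap1 (cytokinesis) at -3.02 ± 0.17. Of 17 G1 cyclins, kinases and E2F factors 8 were lower and 1 higher. Of 19 cyclin-dependent kinase inhibitors and brakes 8 were lower and 1 higher, and Cdkn1c (p57) was at -2.81 ± 0.19. Markers of immature Schwann cells fell in the same comparison in 7 of 10, with Sox2 at -3.49 ± 0.38, and 1 of 10 was higher. Markers of macrophages were higher at P28 in 7 of 12 and lower in 2, those of mast cells higher in 5 of 7 and those of adipocytes higher in 7 of 7. The part of these changes in the result was not tested.

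Between P28 and 4 months most members were lower again, by smaller amounts, and some were higher. The scale of the arrays differed between these ages. In WT nerves the lower quartile was 5.243 and 5.169 at P28, against 4.886 and 4.886 at 4 months. The upper quartile was 8.425 and 8.517 at P28, against 8.783 and 8.759 at 4 months. The part of this in the direction of single genes was not tested. At 4 months against P28, 34 of 38 were below 0 in S63del/CHOP null nerves (median -0.48), 32 in S63del (-0.36), 25 in CHOP null (-0.50) and 28 in WT nerves (-0.41), where the medians of all genes lay between 0.00 and 0.03. In S63del/CHOP null nerves 3 were higher and 16 lower at 4 months, where 22.5% of all genes were higher and 18.0% lower. In S63del nerves 2 were higher and 14 lower (25.3% and 20.8% of all genes), in CHOP null nerves 7 and 17 (31.9% and 31.7%), and in WT nerves 7 and 16 (31.5% and 25.5%). The count of 24 in CHOP null nerves became 13 with quantile normalization (34.2%, against 50.8% of all genes) and 7 with array weights (18.4%, against 31.8%). With only the 4 arrays compared in the fit it became 4 (10.5%, against 11.8%). That of 16 in S63del nerves became 8 without 4 months replicate 1 and 10 without P28 replicate 2, and that of 19 in S63del/CHOP null nerves 10 without 4 months replicate 1.

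In WT nerves the 16 that were lower at 4 months included Ccnb2 (cyclin B2), Cdk1, Aurkb, Plk1 and Birc5, all of mitosis. Ccna2 (cyclin A2) was among the 16 too, as were Mcm3 and Pclaf of the fork. Prc1, a microtubule bundler of cytokinesis, was at -0.99 ± 0.18 in WT nerves (limma, adjusted p = 0.000274) and Birc5 at -0.92 ± 0.23 (adjusted p = 0.00303). For 8 genes (Mcm3, Foxm1, Aurkb, Plk1, Bub1b, Ube2c, Cdca3 and Prc1) all 8 P28 arrays stood above all 8 arrays of 4 months. That is 21.1% of the members and 18.3% of all genes.

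The 7 that were higher at 4 months in WT nerves were Cdc20, Ccne2, Mad2l1, Rrm1 and 3 fork genes, Mcm4, Mcm7 and Pcna. For Ccne2, Mcm4 and Pcna all 8 P28 arrays stood below all 8 arrays of 4 months, or 7.89% of the members against 22.5% of all genes. In WT nerves Pcna was at 11.45 and 11.33 at 4 months, against 10.76 and 10.95 at P28. Cdc20 was the largest rise in WT nerves, with 7.50 and 7.38 at 4 months and 6.46 and 6.38 at P28, a difference of 1.02 ± 0.18 (limma, adjusted p = 0.00026). Both remained below their P5 arrays, the lowest of which were 12.06 for Pcna and 10.04 for Cdc20.

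The second comparison asks what the mutant protein does at each age. At P5 no member was called in S63del against WT nerves, where 2.4% of all genes were called, and 13 members (34.2%) had an unadjusted p under 0.05, as 10.9% of all genes did. The differences were small and nearly all on 1 side: 37 of 38 were above 0, with a median of 0.39 against -0.02 for all genes. For 32 members both S63del arrays stood above both WT arrays, as 22.8% of all genes did. The smallest p was that of Tyms, at 0.54 ± 0.16 (limma, adjusted p = 0.104). Its probe set was dim, with a highest P5 value of 4.86, below the lower quartile of every P5 array (4.90 to 4.95). The 7 spindle, kinetochore and cytokinesis genes lay between 0.40 and 0.57. Array weights called 4 members (10.5%, against 8.34% of all genes), the 8 P5 arrays alone 3 (7.89%, against 7.27%), and leaving out WT replicate 1 called 1.

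Marker levels differed at P5 as well. The 7 myelinating Schwann cell markers averaged 11.83 to 11.86 in S63del, against 12.30 to 12.31 in WT nerves, and 3 of them were called lower. The 10 immature Schwann cell markers averaged 9.31 to 9.38 in S63del, against 9.04 to 9.09 in WT nerves, with 0 called. The 12 endothelial and pericyte markers averaged 8.15 to 8.28 in S63del, against 8.51 to 8.52 in WT nerves, with 1 called lower, and the 10 fibroblast markers 11.19 to 11.31, against 11.45 to 11.48, with 0 called. The part of these levels in the member differences was not tested.

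Cdk1 at P5 was at 10.15 and 10.52 in S63del, against 9.98 and 9.78 in WT nerves. Its difference was 0.46 ± 0.23 (limma, adjusted p = 0.49). The arrays did not overlap, but the gap between them was smaller than that between the S63del arrays.

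At P28, 7 members were called higher and none lower in S63del against WT nerves, where 3.01% of all genes were called higher. They were Ccnd1, Cdk1 and Cks2 (a small kinase partner), Mcm7 and Pclaf of the fork, Rrm2, and Birc5. No checkpoint, anaphase-promoting complex, spindle, kinetochore or cytokinesis gene was called. Their differences lay between -0.10 (Kif11) and 0.65 (Cdc20). Of the 38, 33 were above 0, and the median was 0.31 against 0.01 for all genes. Taking each probe set as a feature, 9 of the 74 were higher and 0 lower, with a median of 0.23. Of all 20380 probe sets 687 were called in either direction. In 11 members the probe sets had opposed signs. Both S63del arrays stood above both WT arrays in 23 members (27.7% of all genes) and below in 3 (24.5%). The interquartile range was 3.48 and 3.38 on the S63del arrays, against 3.18 and 3.35 on the more compressed WT arrays.

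Pclaf was at 7.68 and 7.44 in S63del, against 6.63 and 6.25 in WT nerves. The gap between the groups was wider than that within either, and the difference was 1.12 ± 0.23, or 2.17-fold (limma, adjusted p = 0.0118). Its second probe set gave -0.10 ± 0.21, and the mean of both was 0.51 higher (adjusted p = 0.0739).

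Ccnd1 was at 10.38 and 10.47 in S63del, against 9.30 and 9.77 in WT nerves, a difference of 0.89 ± 0.22 (1.85-fold, limma adjusted p = 0.0263). Its other probe sets gave 0.96 ± 0.24 and 0.35 ± 0.22, the second of which was not called. Cks2 was at 7.05 and 6.76 in S63del, against 5.86 and 6.02 in WT nerves, a difference of 0.97 ± 0.25 (adjusted p = 0.0377), and its other probe set gave 0.94 ± 0.22. All S63del arrays were above the WT arrays in both genes.

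Cdk1 was at 7.40 and 7.12 in S63del, against 6.42 and 6.35 in WT nerves, a 1.83-fold difference (limma, adjusted p = 0.0353). Rrm2 was at 5.66 and 6.17 in S63del, against 4.97 and 5.14 in WT nerves, 1.82-fold (adjusted p = 0.0291). Birc5 was at 6.59 and 6.39 in S63del, against 5.24 and 6.01 in WT nerves, 1.83-fold (adjusted p = 0.0386). The groups did not overlap in any of these, although the WT arrays of Birc5 lay further apart than the groups.

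Mcm7 was at 9.36 and 9.18 in S63del, against 8.68 and 8.85 in WT nerves, a difference of 0.51 ± 0.13 (limma, adjusted p = 0.029), and its other probe sets gave 0.12, 0.54 and -0.10. Mki67 missed the threshold, with 7.34 and 7.11 in S63del against 6.08 and 6.29 in WT nerves (2.06-fold, adjusted p = 0.0511). Cdc20 also missed it, at 0.65 ± 0.18 (adjusted p = 0.0528), as did Top2a, at 0.86 ± 0.29 (adjusted p = 0.0982).

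The count of 7 was not stable. A fit of the 8 P28 arrays alone called 0, where 0.476% of all genes were called. Leaving out any 1 of the 4 arrays lowered the count. The 7 differences stayed positive in all 14 alternatives tried.

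**Figure D3:**
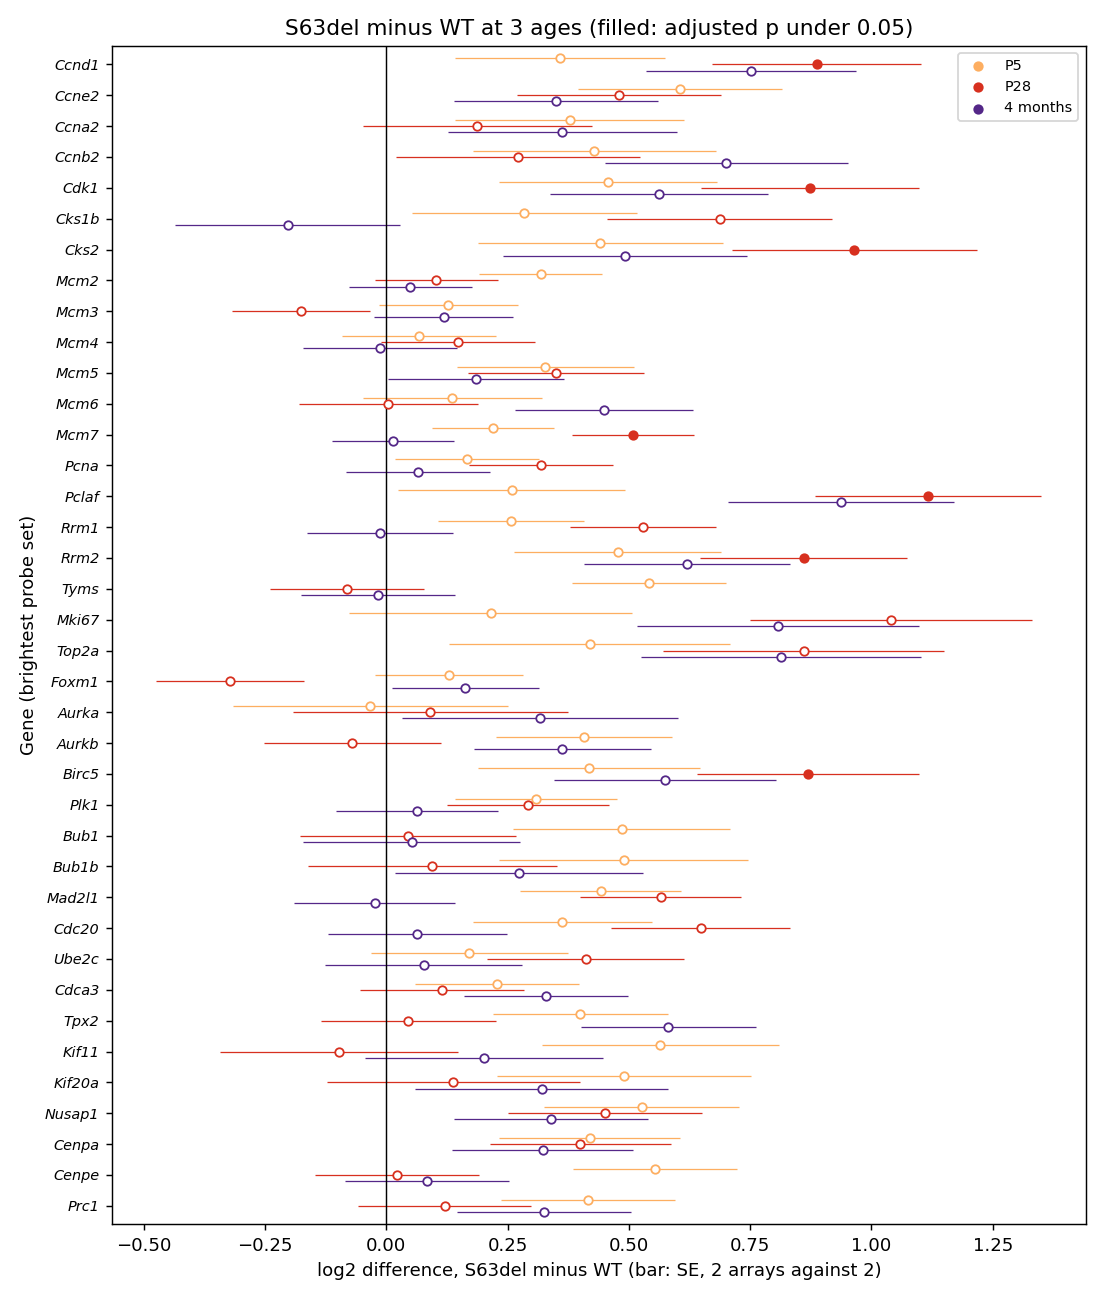
Log2 difference of S63del minus WT nerves (x axis) for each gene (y axis) at P5, P28 and 4 months, with bars of 1 SE and filled points for adjusted p under 0.05. Most points lie right of 0 at all 3 ages, and the 7 filled points are all of P28, led by Pclaf at 1.12.

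At 4 months no member was called, nor was any gene (0.0% of all genes), while 10 members (26.3%) had an unadjusted p under 0.05, as 4.66% of all genes did. The median was 0.32, and 33 of 38 were above 0. Pclaf was at 6.34 and 6.84 in S63del, against 5.76 and 5.55 in WT nerves, 0.94 ± 0.23 (limma, adjusted p = 0.589). Top2a, Mki67 and Ccnd1 were at 0.81 ± 0.29, 0.81 ± 0.29 and 0.75 ± 0.22. Beside these, the immature Schwann cell markers averaged 8.84 to 8.85 in S63del, against 8.40 to 8.55 in WT nerves. The macrophage markers averaged 9.29 to 9.59 in S63del, against 9.11 to 9.18 in WT nerves, and the skeletal muscle markers 7.58 to 9.88, against 6.68 to 7.34. No marker of these lists was called, and their part in the result was not tested.

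Whether the S63del effect differed between ages was tested directly. For P28 minus P5 no member was called, where 0.476% of all genes were. The smallest p was that of the dim probe set of Tyms (-0.62 ± 0.23, limma adjusted p = 0.392). For 4 months minus P28 none was called (0.169% of all genes), with Mcm7 at -0.49 ± 0.18 (adjusted p = 0.466). The counts with an unadjusted p under 0.05 were 3 and 6 of 38 (7.89% and 15.8%), against 8.12% and 8.59% of all genes. The calls at P28 therefore do not show that P28 differed from the other ages.

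Pooling the genotypes puts 4 arrays on each side and shares arrays with the comparison of S63del with WT nerves. At P28, 16 members were called higher and 0 lower in both S63del genotypes against CHOP null and WT nerves, where 16.1% of all genes were called higher. All 4 S63del arrays stood above all 4 others in 16 members, as 12.1% of all genes did. Of those 16 members 15 were also called, the exception being Cenpa, the centromeric histone. An unadjusted p under 0.05 was found for 20 members (52.6%), against 42.2% of all genes. The interquartile range was 3.383 to 3.517 on the 4 arrays of both S63del genotypes, against 2.902 to 3.381 on the 4 others. Compression of the arrays thus went with genotype. Its part in the calls was not tested beyond the alternative with quantile normalization.

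Pclaf ranged from 7.44 to 7.68 on the 4 arrays of both S63del genotypes, against 6.25 to 6.63 on the 4 others. The difference was 1.10 ± 0.17 (limma, adjusted p = 0.000308), and it was called under every alternative tried, although the mean of its probe sets gave 0.48. Mki67 ranged from 7.02 to 7.34, against 5.86 to 6.59, a difference of 0.99 ± 0.21 (adjusted p = 0.00328). Ccnd1 ranged from 10.38 to 10.75, against 9.30 to 9.77, and Cdc20 from 6.94 to 7.32, against 6.0 to 6.72. None of the 4 overlapped. For Mki67 and Cdc20 the gap between the groups was smaller than the spread among the arrays of CHOP null and WT nerves.

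The calls came from cyclins and kinase partners (5 of 7), the fork (3 of 8), nucleotide supply (2 of 3), Mki67 and Top2a, Birc5, Cdc20 and Mad2l1 of the checkpoint, and Nusap1 of the spindle. Among the 7 spindle, kinetochore and cytokinesis genes the median was 0.01, with Kif11, a spindle motor, at -0.45 ± 0.17 (adjusted p = 0.0627). Array weights left 6 calls (15.8%, against 5.78% of all genes) and the 8 arrays of P28 alone 8 (21.1%, against 3.33%).

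At P5 the same pooled comparison called 1 member, Prc1, where 2.87% of all genes were called higher. All 4 arrays of both S63del genotypes stood above the 4 others in 16 members, as 11.0% of all genes did. Prc1 ranged from 9.03 to 9.25 in both S63del genotypes, against 8.40 to 8.87 in the others, 0.55 ± 0.13 (limma, adjusted p = 0.014). Leaving out 1 array ended this call in 4 of 8 cases (CHOP null replicate 1, S63del replicate 1, S63del/CHOP null replicate 2 and WT replicate 2). The 8 P5 arrays alone called 9 members (23.7%, against 13.8% of all genes) and array weights 14 (36.8%, against 16.9%). At 4 months none was called (0.0% of all genes), and 11 (28.9%) had an unadjusted p under 0.05, as 3.29% of all genes did. In 3 (Bub1b, Cdca3 and Prc1) all 4 arrays stood above the 4 others, as in 1.22% of all genes. Leaving out S63del/CHOP null replicate 1 called 1.

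**Figure D4:**
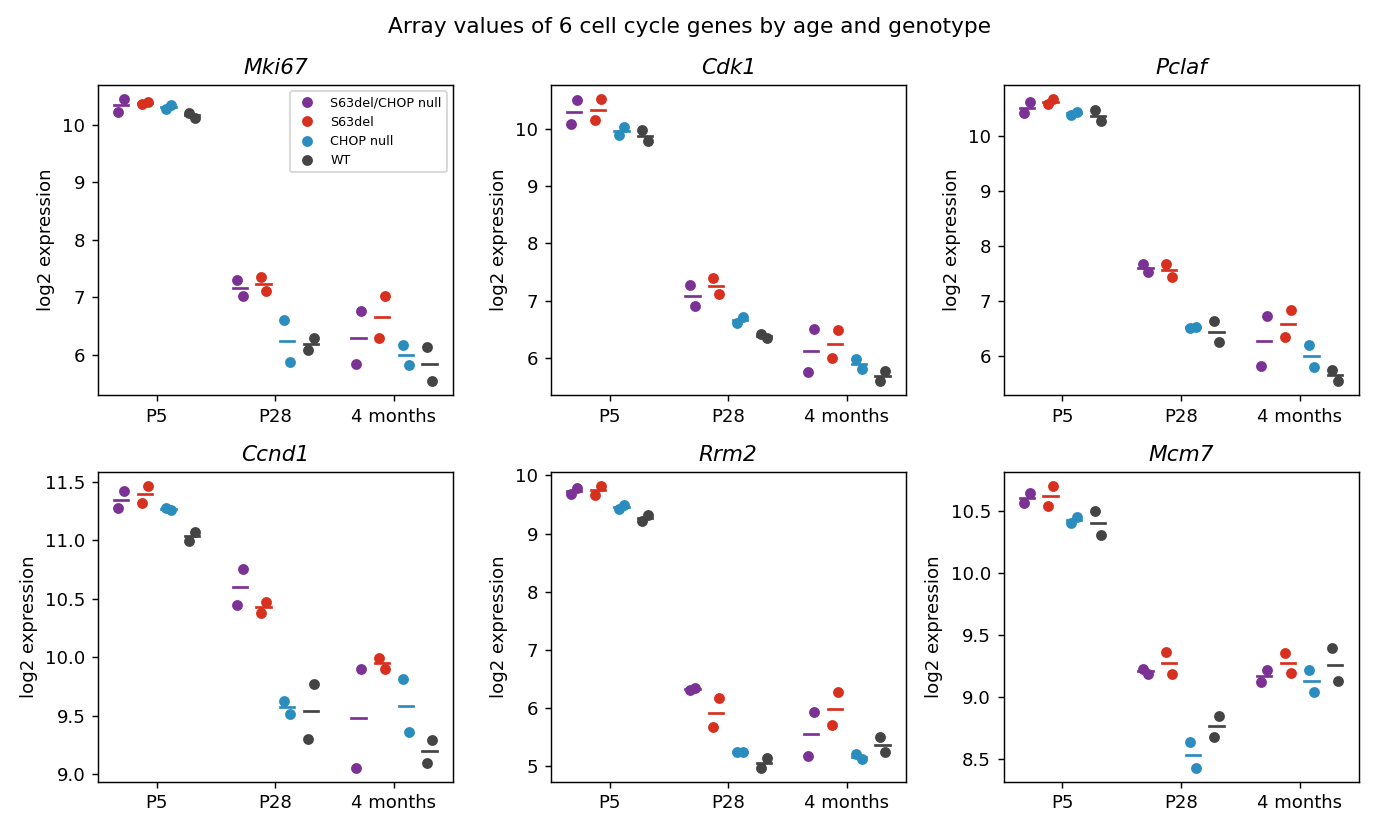
Log2 expression of 6 genes (panels, y axis) at 3 ages (x axis), with a point for each array, a line for the mean of 2 and a colour for each genotype. At P28 both S63del genotypes lie above CHOP null and WT in all 6 panels, for Pclaf at 7.44 to 7.68 against 6.25 to 6.63.

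The third comparison asks what CHOP loss does in the mutant. No member was called in S63del/CHOP null against S63del nerves at any age, where 0.0161%, 0.00807% and 0.00807% of all genes were called at P5, P28 and 4 months. The unadjusted p was under 0.05 for 1, 2 and 2 members (2.63%, 5.26% and 5.26%), against 0.888%, 3.76% and 2.21% of all genes. The medians were -0.04, -0.06 and -0.13. At P28 Pclaf was at 7.68 and 7.52 in S63del/CHOP null, against 7.68 and 7.44 in S63del nerves, a difference of 0.04 ± 0.23. Ccnd1 was at 10.45 and 10.75 in S63del/CHOP null, against 10.38 and 10.47 in S63del nerves, 0.17 ± 0.22. Mki67 was at 7.30 and 7.02 in S63del/CHOP null, against 7.34 and 7.11 in S63del nerves, -0.07 ± 0.29. The arrays of the 2 genotypes overlapped in all 3 genes, and a p that misses the threshold does not show that they were equal. The smallest p at P28 was that of Plk1, a mitotic kinase, at -0.53 ± 0.17 (limma, adjusted p = 1).

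In CHOP null against WT nerves no member was called at any age (0.0%, 0.0% and 0.00807% of all genes). An unadjusted p under 0.05 was found for 1, 2 and 0 members (2.63%, 5.26% and 0%), against 0.92%, 10% and 5.91% of all genes. At P5 the differences were still mostly on 1 side: 32 of 38 were above 0, with a median of 0.13 against -0.02 for all genes. Both CHOP null arrays stood above both WT arrays in 21 members, as 13.5% of all genes did. Leaving out CHOP null P28 replicate 1 raised the P28 count, but then the group rested on replicate 2 alone. That array had the lowest interquartile range of all (2.90), so calls of that fit are not read as a result about the members. In S63del/CHOP null against CHOP null nerves none was called at P5 (1.78% of all genes) or 4 months (0.0%). There 2 and 0 members (5.26% and 0%) had an unadjusted p under 0.05, against 8.43% and 1.46% of all genes. At P28, S63del/CHOP null against CHOP null nerves gave 8 members higher and 1 lower, where 9.77% of all genes were higher and 8.05% lower. The higher ones were Ccnd1, Cks1b, Mcm7, Pclaf, Rrm1, Rrm2, Mki67 and Cdc20, led by Rrm2 at 1.08 ± 0.21 (limma, adjusted p = 0.00474), and the lower one Kif11, at -0.80 ± 0.25 (adjusted p = 0.0353). These 9 calls were not stable. Array weights left 0 (0.113% of all genes), the 4 arrays alone 0 (0.0%) and the 8 P28 arrays alone 1 (0.678%). The count rose without CHOP null replicate 1 and fell without any other of the 4 arrays. Each such fit rests 1 group on a lone array, so its calls are not read as a result about the members. At P5 array weights called 2 (5.26%, against 7.54% of all genes).

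The test of whether the S63del effect depended on CHOP called no member at P5, P28 or 4 months, and no gene at all (0.0%). At each age 1 member (2.63%) had an unadjusted p under 0.05, against 0.863%, 7.84% and 2.6% of all genes. Leaving out CHOP null P28 replicate 1 raised the P28 count, with the same limit of a lone array. The smallest p of the full test at P28 was that of Plk1, at -0.51 ± 0.24 (limma, adjusted p = 0.62).

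Other measures moved with the S63del difference at P28. Of 10 markers of immature Schwann cells 7 were higher in S63del than in WT nerves, with Sox2 at 2.19 ± 0.38 and Gfap at 1.43 ± 0.22. The 10 averaged 8.88 in S63del, against 7.81 to 8.04 in WT nerves. Of 12 macrophage markers 3 were higher (Ctss, Cx3cr1 and Aif1), and the 12 averaged 9.68 to 9.71 in S63del, against 9.28 to 9.45 in WT nerves. Of 7 mast cell markers 2 were higher, and the 7 averaged 8.10 to 8.18 in S63del, against 7.38 to 7.40 in WT nerves. Of 9 T and B cell markers 0 were called. The 10 skeletal muscle markers averaged 7.77 to 10.7 in S63del, against 10.8 to 11.4 in WT nerves, with 0 of 10 called and a median of -2.12. Their part in the result was not tested.

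In the same comparison 3 of 27 other replication genes were higher, among them Rpa2 at 0.75 ± 0.17 (limma, adjusted p = 0.0158). Of 39 other mitotic genes 2 were higher and 1 lower, with Kif22 at 0.84 ± 0.19. Cdk4, the partner of cyclin D1, was at 0.62 ± 0.12 (adjusted p = 0.00615) and Mycn at 0.80 ± 0.19, the 2 calls among 17 G1 genes. Of 19 inhibitors and brakes 3 were also higher, Cdkn2b (p15) at 1.12 ± 0.20 (adjusted p = 0.00389), Btg1 at 0.64 ± 0.15 and Cdkn2a at 1.06 ± 0.27. Genes that drive the cycle and genes that brake it were both among those higher in S63del nerves.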

How the data were processed

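Mouse sciatic nerve RNA was measured on 24 Affymetrix arrays, 2 for each of 12 groups. The authors deposited log2 expression per probe set for 22690 probe sets. That unit comes from the range of the values. The software and normalization were not given in the sources used here. Control probe sets (64) and those naming several genes (691) or none (1555) were left out. A mean per group was estimated over the 24 arrays by limma 3.58.1 in R 4.3.3, with moderated variances; each comparison was a contrast of them, and p-values were adjusted by Benjamini-Hochberg over 12393 genes, with a threshold of 0.05. Arrays have no read depth, and their number limits the precision. An exact permutation test of 2 arrays against 2 cannot go below 0.333.

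The fit was run on simulated data with independent noise, without the compression of the P28 arrays or shared shifts of replicates. That run cannot vouch for the calls in these data. The text names members past the threshold, the 10 with the largest changes, 10 fixed members, and up to 4 genes of each other list with the smallest p; other members named singly, such as Cenpa, were chosen after their values were seen. Members and lists were chosen with earlier results of these data known. Comparisons of S63del/CHOP null with CHOP null and of 4 months with P5 were added after the data were seen. Alternatives were the normalization, the choice of probe set, dim genes (below the 40th percentile of mean level) left out, the arrays in the fit, array weights, a variance trend, a replicate block and each array left out. No label or header gives a batch. Over all genes, correlations of replicate differences between genotypes within an age ran from -0.477 to 0.349. Among the members, same-numbered replicates did shift the same way in some genotypes. At P5 replicate 2 stood above replicate 1 in 35 members in S63del/CHOP null, 34 in S63del, 32 in CHOP null and 10 in WT nerves. In that order the counts were 11, 12, 16 and 20 at P28, and 36, 29, 9 and 9 at 4 months. The cause was not tested.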

Additional observations from a re-analysis of the deposited data

How the results depend on the processing

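Of 32 comparisons, each with its count of the 38 members called, 322 counts under alternatives were made and 278 stayed within 1.5 times the count reported. The cause of the other 44 was not tested, except that leaving out dim genes left 24 members to test. Percentages in brackets are shares of all genes called, not given where dim genes were left out. For S63del against WT nerves at P28 (7), array weights gave 3 (4.43%), the mean of all probe sets 4 (3.83%) and the compared arrays alone 4 (1.69%). The 8 P28 arrays alone gave 0 (0.476%), dim genes left out 11 and an intensity trend 11 (5.98%). Leaving out 2 arrays that stand apart (CHOP null P28 replicate 2 and WT 4 months replicate 1) gave 12 (14.2%). At P5 (0), array weights gave 4 (8.34%), the 8 P5 arrays 3 (7.27%), the compared arrays 2 (4.68%), and a fit without P28 arrays 1 (4.55%). For both S63del genotypes against both others at P28 (16), array weights gave 6 (5.78% of all genes) and the 8 arrays, which are also the compared arrays, 8 (3.33%). At P5 (1) they gave 14 and 9, the mean of probe sets 2 with and without quantile normalization, and leaving out the 2 arrays or the P28 arrays 4 each. For 4 months against P28 in CHOP null nerves (24), array weights gave 7 (31.8% of all genes), compared arrays 4 (11.8%) and quantile normalization 13 (50.8%). Leaving out dim genes gave 13 there. In S63del nerves (16) dim genes left out gave 10. For P28 against P5 dim genes left out gave 24 in S63del/CHOP null and 23 in each other genotype, and for 4 months against P5 24 in each. For S63del/CHOP null against CHOP null nerves at P28 (9), array weights and the compared arrays gave 0, the 8 P28 arrays 1 and leaving out the 2 arrays 5. At P5 (0) array weights, the compared arrays and the fit without P28 arrays gave 2, and dim genes left out, the 8 P5 arrays and leaving out the 2 arrays gave 1. The fits of the 8 arrays of 1 age, those without P28 arrays and the mean of probe sets with quantile normalization were chosen after seeing the data, as were all alternatives for S63del/CHOP null against CHOP null nerves and for 4 months against P5. Under the mean of probe sets with quantile normalization, 4 months against P28 in CHOP null nerves turned to -0.75 for Ccnd1 (0.01 in the fit reported) and to 0.39 for Rrm2 (-0.09).

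Leaving out 1 array gave, for S63del against WT nerves, 1 to 3 at P28 and 0 to 1 at P5. For both S63del genotypes against both others it gave 11 to 22 at P28, 0 to 2 at P5 and 0 to 1 at 4 months. The counts for 4 months against P28 were 10 to 17 in S63del/CHOP null, 8 to 13 in S63del, 15 to 23 in CHOP null and 18 to 21 in WT nerves, and those for P28 against P5 were 35 to 37, 36 to 36, 35 to 36 and 34 to 36. Those for 4 months against P5 were 37 to 38, 37 to 37, 36 to 38 and 36 to 37 in the same order, and S63del/CHOP null against CHOP null nerves gave 3 to 16 at P28 and 0 to 0 at P5 and 4 months. CHOP null against WT nerves at P28 gave 0 to 9, with 9 without CHOP null replicate 1, and the interaction with CHOP at P28 gave 0 to 3, with 3 without that array. For 11 comparisons every setting gave 0. A lone array left in a group was assumed to vary like the others. The shares of all genes called are not given for the fits with 1 array left out. Their counts show instability and are not read as results about the members. The replicate block treats same-numbered replicates as pairs, which no label states. It gave 6 for S63del against WT nerves at P28, and 15 and 1 for both S63del genotypes at P28 and P5. For S63del/CHOP null against CHOP null nerves at P28 it gave 9. For P28 against P5 it gave 37, 36, 36 and 37 in S63del/CHOP null, S63del, CHOP null and WT nerves. The block changed no count by over 1.5 times.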

Other observations

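The replicates of the nerves differed in the members as a set. At 4 months replicate 2 stood above replicate 1 in 36 of 38 members in S63del/CHOP null nerves (median difference 0.31) and in 29 of 38 in S63del nerves (0.23), against 9 of 38 each in CHOP null (-0.09) and WT nerves (-0.18). Over all genes the shares above were 53.0%, 45.3%, 47.1% and 39.9%. At P5 replicate 2 stood above replicate 1 in 35 members in S63del/CHOP null, 34 in S63del, 32 in CHOP null and 10 in WT nerves. Over all genes the shares at P5 were 51.0%, 53.3%, 47.6% and 42.6%.

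The mean level of the 38 members was compared by array. At P5 it was 8.79 to 8.99 in S63del/CHOP null, 8.84 to 9.06 in S63del, 8.68 to 8.76 in CHOP null and 8.54 to 8.67 in WT nerves. At P28 it was 6.53 to 6.62, 6.61 to 6.69, 6.28 to 6.30 and 6.27 to 6.30 in the same genotypes. At both ages the arrays of S63del/CHOP null and of S63del lay above all WT arrays. At 4 months it was 5.93 to 6.31 in S63del/CHOP null, 6.17 to 6.39 in S63del, 5.94 to 6.06 in CHOP null and 5.88 to 6.07 in WT nerves. Both S63del arrays lay above both WT arrays, while those of S63del/CHOP null overlapped those of S63del and of WT nerves.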
